A study of Mus musculus with 34 samples.

Results

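The comparison described here set 3 libraries of CD28 DKI T cells against 2 libraries of wild-type (WT) T cells at 24 h of stimulation. The members were the columns named DKI_D1 numbers 1 to 3 and WT_D1 numbers 1 and 4, which are 5 of the 34 libraries of the series. All were pan T cells taken from the spleen of C57BL/6 mice aged 6 to 12 weeks by negative selection, and cultured with antibodies to CD3 and CD28 and recombinant IL-2 before total RNA was sequenced after ribosomal RNA depletion. The labels give the genotype as DKI, and the design text as CD28 DKI, without saying which residues it changes, what its control strain was or how many mice gave each library. The design text calls the libraries biological replicates. The other groups used below were the libraries labelled CD28 KO (2 at 24 h), CD28 AYAA (3 at 24 h), CD28 Y170F (3 at 24 h) and the DKI and WT libraries at 72 h (3 and 2), all from the same strain and stimulated in the same way. The series title asks how a CD28 pathway bears on splicing of the pyruvate kinase gene Pkm, on glycolysis and on effector function of CD8 T cells.

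CD28 is the main costimulatory receptor of resting T cells. When it is engaged together with the T cell receptor, short motifs in its tail recruit kinases and adaptors, and the joint signal raises transcription of IL-2, the cytokines and the IL-2 receptor, growth of the cell and entry into the cell cycle. Over the first day a resting T cell enlarges, builds ribosomes and metabolic enzymes, copies its DNA and shuts down the genes that keep it quiescent and circulating through lymph nodes. Groups of these genes, by role, are described below.

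Depth separated the libraries before any gene did. The DKI libraries held 8.3 to 10.6 M counts (M, 1000000), WT number 4 held 10.4 M and WT number 1 held 26.4 M. All 8 libraries of the series under 12 M were the DKI libraries and WT number 4 at both times, so DKI and low depth cannot be told apart in a comparison with any other group, and WT number 4 is the control of like depth. For that reason the main lists below are given against both WT libraries and against WT number 4 alone, where the lone library is assumed to vary like those of the other groups. All 12 defining T cell markers, among them Cd3e, Trac and Lck, were above 1 CPM (counts per 1000000 counts, with TMM-scaled totals) in the 5 libraries, and their summed level was 2770 and 2930 CPM in WT and 3120 to 3320 CPM in DKI. B cell markers summed to 86.7 and 37.1 CPM in WT and to 31.5 to 33.9 CPM in DKI, myeloid markers to 19.1 and 13.6 against 8.78 to 10.2, with Cd14, C1qa, C1qb and C1qc at 0 in all 5 libraries, natural killer (NK) cell markers to 112 and 97.1 against 58.5 to 68.6, and erythroid and platelet markers to 2.95 and 39.1 against 10.8 to 14.5. The NK sum does not stand for most of its members. By gene, 1 of 9 NK markers was called higher in DKI and 0 lower, beside 10.3% and 15.8% of all genes tested. Their median log2 fold change was 0.53, with 5 positive and 4 negative. In 4 of them every DKI library lay above both WT libraries, and in 2 below, beside 25.8% and 28.2% of all genes tested. Small noncoding RNA took 4.17% and 4.39% of counts in WT and 5.07% to 5.62% in DKI. The part of these differences in the results below was not tested. In bulk RNA, fewer cells of a type and less RNA per cell cannot be told apart.

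Cd28 transcript (chr1:60716800-60773359, GRCm38) stood at 387 and 411 CPM in the WT libraries and 530, 554 and 524 CPM in the DKI libraries (log2 fold change 0.43, SE 0.16, adjusted p 0.053). All 3 DKI libraries lay above both WT libraries, and the difference did not pass the threshold of 0.05. A gene-level count does not show what the DKI genotype changes, so Cd28 checks the labels no further than that the transcript was present in each library.

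Against both WT libraries, 4765 of 18292 genes tested (26.0%) passed an adjusted p of 0.05 in edgeR's quasi-likelihood test. Of these, 2881 (15.8% of genes tested) were lower in DKI and 1884 (10.3%) were higher. Against WT number 4 alone 671 genes passed (3.52%), 495 of them lower (2.6%) and 176 higher (0.923%). Of the 4765 genes called with both WT libraries, 658 were called the same way against number 4, in comparisons that share the DKI libraries and number 4 itself. With WT number 1 alone the count was 4908 (25.8%), and with low depth as a term in the fit it was 1522 (8.32%), 1045 lower (5.71%) and 477 higher (2.61%). Only WT held libraries of both depths, so the depth term was estimated from WT numbers 1 and 4 alone, shared between 24 h and 72 h. It cannot separate depth from any other difference between those WT libraries. Without overlap between the groups, 5153 genes (28.2%) had every DKI library below both WT libraries and 4712 (25.8%) had every DKI library above them. The counts of list members that follow are read against the 15.8% lower and 10.3% higher over all genes, and against 2.6% and 0.923% with number 4 alone.

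Genes were named here if they passed with both WT libraries and with number 4 alone, had a set minimum of expression and did not overlap between the groups. Among them, those that fell most were mainly cytokine, replication-dependent histone and mitotic genes. Ifng (chr10:118441046-118445892), the gene of interferon gamma, stood at 51.6 and 53.7 CPM in WT and 2.03, 1.01 and 2.78 CPM in DKI (log2 fold change -4.75, SE 0.73, adjusted p 4.3e-05). The chemokine gene Ccl3 stood at 29.5 and 36.0 CPM in WT and 3.89, 2.02 and 3.45 CPM in DKI (log2 fold change -3.37, SE 0.60, adjusted p 0.00027). For Gzmb, which encodes the killing protease granzyme B, the levels were 371 and 216 CPM in WT and 39.1, 21.6 and 38.1 CPM in DKI (log2 fold change -3.15, SE 0.61, adjusted p 0.0006). In each of these genes the DKI libraries were all far below both WT libraries, and the WT libraries of unlike depth stood close to each other in Ifng and Ccl3. For Lif, a cytokine of the IL-6 family, the libraries held 134 and 79.1 CPM in WT and 12.4, 10.1 and 15.5 CPM in DKI (log2 fold change -3.08, SE 0.62, adjusted p 0.00085). Serpina3f, a protease inhibitor gene, was lower by the same test (log2 fold change -2.95). The histone genes Hist1h2ah, Hist2h3c2 and Hist1h3c fell as well, with log2 fold changes of -3.81, -3.19 and -2.97. Reads of these histone genes may be shared with near-identical copies, so the split between copies is uncertain. The other genes of this set were Pbk, a kinase of dividing cells (-3.28), Iqgap3, a scaffold protein (-3.14), and the mitotic genes Cdc25c (-3.04) and Ccnb1 (-2.99).

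Fewer genes rose by both tests (166 against 492 that fell), and the largest changes were smaller. Ephx1, which encodes the microsomal epoxide hydrolase, stood at 15.3 and 20.1 CPM in WT and 84.6, 99.9 and 73.8 CPM in DKI (log2 fold change 2.30, SE 0.30, adjusted p 5e-06). Cnga1, a subunit of a cyclic nucleotide-gated channel, stood at 2.70 and 4.42 CPM in WT and 16.0, 19.3 and 15.7 CPM in DKI (log2 fold change 2.31, SE 0.29, adjusted p 2.5e-06). For both, the DKI libraries were several-fold above either WT library, where lack of overlap was a condition for naming them. Tob1, an antiproliferative gene of resting T cells, stood at 8.97 and 12.4 CPM in WT and 23.2, 22.5 and 24.3 CPM in DKI (log2 fold change 1.15, SE 0.17, adjusted p 4e-05). Wfikkn2, a secreted protease inhibitor gene (1.94), Sytl2, a vesicle transport gene (1.68), and H2-Ob, a chain of the class II chaperone H2-O (1.45), rose as well. So did Cd55, which restrains complement (1.43), the anion transporter Slc26a11 (1.32), the chemokine receptor Ccr4 (1.25), the RNA-binding protein gene Mex3b (1.23), Nipal1 (1.21) and Id3, an inhibitor of E proteins (1.13). Each value in brackets is the log2 fold change in DKI against WT.

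**Figure D1:**
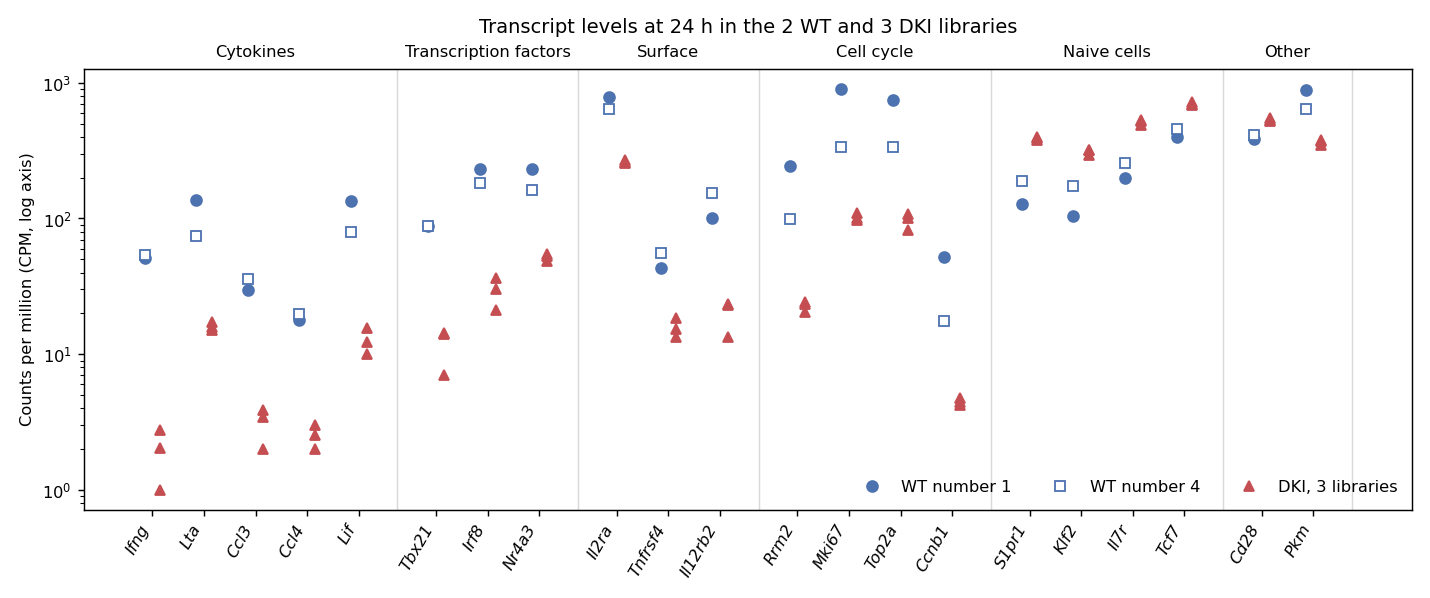
Levels in counts per 1000000 (CPM, log axis) at 24 h of the genes named along the x axis, which are cytokines, transcription factors, receptors, cell cycle genes, naive cell genes, Cd28 and Pkm, with 1 marker per library: filled circles for WT number 1, open squares for WT number 4 and triangles for the 3 DKI libraries. The first 4 of these groups and Pkm lie lower in DKI than in either WT library, the naive cell genes and Cd28 lie higher, and the WT libraries are farthest from each other in the cell cycle genes.

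Genes of mitosis formed the list with the lowest median. Of 37 tested, 34 fell and 1 rose in DKI, with a median log2 fold change of -2.50 beside 0.00 over all genes. Against WT number 4 alone 31 fell and 1 rose, with a median of -1.56, and with the depth term 34 fell. The WT libraries were themselves apart: the median member was 1.33 log2 units higher in number 1 than in number 4. In 34 of 37 genes number 4 lay between the DKI libraries and number 1, beside 7635 of 18292 genes tested. Ccna2, the cyclin of S phase and early mitosis, stood at 141 and 52.2 CPM in WT and 13.7, 10.3 and 15.6 CPM in DKI (log2 fold change -2.88, SE 0.28, adjusted p 2.3e-07). Ccnb1, the mitotic cyclin, stood at 52.4 and 17.7 CPM in WT and 4.24, 4.48 and 4.78 CPM in DKI (log2 fold change -2.99, SE 0.34, adjusted p 7.5e-07). In both cyclins the order of the libraries was the same, with DKI lowest, WT number 4 above it and WT number 1 highest.

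The kinases and motors of the spindle followed that order. Cdk1, the partner of both cyclins, stood at 64.6 and 26.0 CPM in WT and 8.83, 6.84 and 5.89 CPM in DKI (log2 fold change -2.66, SE 0.28, adjusted p 2.8e-07; -1.80 against number 4 alone). Top2a, the topoisomerase that untangles sister chromatids, stood at 745 and 334 CPM in WT and 101, 82.1 and 107 CPM in DKI (log2 fold change -2.48, SE 0.24, adjusted p 2.3e-07; -1.74 against number 4 alone). Mki67, the gene of the proliferation marker Ki-67, stood at 894 and 334 CPM in WT and 110, 101 and 97.8 CPM in DKI (log2 fold change -2.58, SE 0.28, adjusted p 3.4e-07; -1.65 against number 4 alone). In these 3 genes the DKI libraries lay well below WT number 4, the lower of the WT libraries. Aurkb (-2.58), Bub1 (-2.72), Anln (-2.50), Kif11 (-2.62) and Espl1 (-2.67), which encode a spindle kinase, a checkpoint kinase, a cytokinesis protein, a spindle motor and separase, fell by the log2 fold changes given. The member that rose was Cdc25b, a phosphatase that activates cyclin-dependent kinases, at 44.8 and 35.7 CPM in WT and 67.7, 85.9 and 70.3 CPM in DKI (log2 fold change 0.88, SE 0.19, adjusted p 0.0017; 1.11 against number 4 alone). Pttg1 and Cenpa, an inhibitor of separase and the centromeric histone, did not pass (0.18 and -0.10, adjusted p 0.29 and 0.73).

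Promoters of mitotic genes often carry the cell cycle genes homology region (CHR), the letters TTTGAA, where a repressor of resting cells and an activator of dividing cells both bind. In promoter windows from RefSeq (GRCm38.p6, 250 bases before to 50 after the start), TTTGAA on either strand was found in 23 of 32 windows of the mitosis list (71.9%), beside 12.8% of windows of the genes tested and 17.9% of all 32851 windows in the table. Windows were found for 11269 of the 18292 genes tested (61.6%). In the windows of genes that fell the share was 15.4%, and in those of genes that rose 11.2%. The match is a description and not a site shown to be bound. Mitotic genes that fell were taken by smallest p among those with a match in the 150 bases before the start. Nearness to the start therefore follows from that choice. These stretches are those 150 bases for 4 of them, on the gene's own strand and read 5′ to 3′, with the matches in capitals:
Top2a (chr11:99024190-99024339, minus strand): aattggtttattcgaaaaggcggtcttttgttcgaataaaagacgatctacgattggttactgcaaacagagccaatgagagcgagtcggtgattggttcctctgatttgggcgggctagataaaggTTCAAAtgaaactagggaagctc
Kif11 (chr19:37376232-37376381, plus strand): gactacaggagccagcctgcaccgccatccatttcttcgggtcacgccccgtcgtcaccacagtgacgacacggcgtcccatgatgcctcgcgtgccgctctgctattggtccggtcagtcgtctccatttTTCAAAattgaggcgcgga
Espl1 (chr15:102296143-102296292, plus strand): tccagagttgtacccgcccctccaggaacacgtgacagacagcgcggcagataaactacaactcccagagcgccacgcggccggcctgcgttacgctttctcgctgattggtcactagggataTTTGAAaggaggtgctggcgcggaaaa
Cdk1 (chr10:69352913-69353062, minus strand): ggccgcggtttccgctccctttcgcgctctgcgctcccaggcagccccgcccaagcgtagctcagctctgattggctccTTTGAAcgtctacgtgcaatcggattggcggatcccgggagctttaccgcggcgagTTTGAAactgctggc
Counted with -1 as the last base before the start, the match began at -23 in Top2a, -19 in Kif11, -27 in Espl1, and at -71 and -15 in Cdk1. The windows of Cdc25b and Pttg1, which did not fall, held no TTTGAA, and neither did those of Ccnb1, Bub1, Mad2l1, Nek2, Nuf2, Cenpe and Birc5, which fell. The window of Cenpa, which did not pass, held 1 match.

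Genes of DNA replication and S phase fell almost as a whole list. Of 40 tested, 39 fell and 0 rose (median log2 fold change -1.46). Against WT number 4 alone 27 fell (median -1.08), and all 40 members had every DKI library below both WT libraries. Rrm2, the regulated subunit of ribonucleotide reductase, stood at 244 and 98.7 CPM in WT and 23.6, 20.4 and 24.3 CPM in DKI (log2 fold change -2.92, SE 0.28, adjusted p 2.3e-07). Tyms, thymidylate synthase, stood at 99.6 and 52.4 CPM in WT and 17.3, 15.6 and 15.3 CPM in DKI (log2 fold change -2.25, SE 0.22, adjusted p 2.3e-07). The DKI libraries stood close to each other in both genes, and all lay under WT number 4. The salvage kinase Tk1 (-2.11), the replication initiation factors Mcm10 (-2.35), Cdc45 (-2.07) and Cdc6 (-2.26), the helicase-like factor Hells (-1.87), and the polymerase subunits Pole (-1.60) and Pola1 (-1.61) fell too. The helicase subunits Mcm2 to Mcm7 fell less, between -0.96 for Mcm6 and -1.45 for Mcm5, and Pcna, the sliding clamp, stood at 448 and 281 CPM in WT and 151, 151 and 149 CPM in DKI (log2 fold change -1.28, SE 0.23, adjusted p 0.00025). Of these, Mcm5, Mcm7 and Mcm4 also passed against number 4 alone (adjusted p 0.011, 0.035 and 0.039), while Mcm2, Mcm6 and Pcna did not (0.16, 0.18 and 0.068). The member that did not pass was Pole2, at 31.7 and 29.0 CPM in WT and 23.2, 24.8 and 24.2 CPM in DKI (adjusted p 0.15).

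E2F proteins drive replication genes through the letters TTTCCCGC and TTTGGCGC. Either was found, on either strand, in 13 of 38 windows of this list (34.2%), beside 2.7% of windows of genes tested and 1.6% of all windows. The share was 5.4% among windows of genes that fell and 1.4% among those of genes that rose. The 150 bases before the start of 3 replication genes that fell are shown, chosen and marked in the same way, with the E2F letters in capitals:
Hells (chr19:38930840-38930989, plus strand): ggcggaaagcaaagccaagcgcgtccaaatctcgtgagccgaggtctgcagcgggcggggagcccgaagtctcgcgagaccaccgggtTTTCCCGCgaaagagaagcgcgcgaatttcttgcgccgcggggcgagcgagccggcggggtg
Pola1 (chrX:93632156-93632305, minus strand): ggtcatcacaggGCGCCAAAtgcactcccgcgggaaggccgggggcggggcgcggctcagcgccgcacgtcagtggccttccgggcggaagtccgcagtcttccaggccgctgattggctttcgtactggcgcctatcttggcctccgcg
Cdc6 (chr11:98908001-98908150, plus strand): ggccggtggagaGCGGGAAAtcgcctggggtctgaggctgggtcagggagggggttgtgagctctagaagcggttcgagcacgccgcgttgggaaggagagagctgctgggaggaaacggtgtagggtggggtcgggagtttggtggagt
The match began at -62 in Hells and at -138 in Pola1 and Cdc6.

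Upstream of both lists, 17 of 28 genes of G1 control fell and 4 rose (median -0.96; 9 and 1 against WT number 4 alone). Most E2F genes fell. E2f8, a late repressor of the family, stood at 51.6 and 21.8 CPM in WT and 5.12, 6.17 and 6.11 CPM in DKI (log2 fold change -2.69, SE 0.27, adjusted p 2.7e-07). E2f7 (-2.54), the activators E2f1 (-1.76), E2f2 (-1.48) and E2f3 (-1.65), and the cyclins Ccne1 (-1.67) and Ccne2 (-2.23) fell, and so did Mybl2, a partner of the mitotic activator (-2.17). E2f4, a repressor of resting cells, had the smallest fold of the genes that fell (-0.48, adjusted p 0.033). The 4 genes that rose were Rbl2, the pocket protein of quiescent cells, at 76.4 and 89.5 CPM in WT and 124, 126 and 120 CPM in DKI (log2 fold change 0.58, SE 0.10, adjusted p 0.00025), the inhibitor Cdkn1b (0.87), Myb (0.83) and Ccnd3 (0.34). Ccnd2, another D cyclin, fell (1262 and 1327 CPM in WT and 862, 852 and 905 CPM in DKI, log2 fold change -0.57), so these D cyclins moved in opposite directions.

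Several cytokine genes were far lower in DKI with either WT library. Of 24 tested, 12 fell and none rose (median -1.07), and 9 fell against number 4 alone (median -1.19). Besides Ifng, Ccl3 and Lif, these included Lta, lymphotoxin alpha, at 137 and 74.6 CPM in WT and 15.1, 17.2 and 16.0 CPM in DKI (log2 fold change -2.72, SE 0.36, adjusted p 5.1e-06), the chemokine Ccl4 at 17.8 and 19.9 CPM in WT and 2.56, 2.02 and 3.00 CPM in DKI (log2 fold change -2.89, SE 0.49, adjusted p 0.00014), and Xcl1 at 20.1 and 31.6 CPM in WT and 3.89, 3.59 and 3.56 CPM in DKI (log2 fold change -2.80, SE 0.66, adjusted p 0.0036). None of these 3 genes had a DKI library near the WT range. Tnf was nearer, at 104 and 75.6 CPM in WT and 41.5, 44.3 and 39.8 CPM in DKI (log2 fold change -1.10, SE 0.35, adjusted p 0.022), and against number 4 alone it did not pass (adjusted p 0.32). Ebi3, a subunit shared by IL-27 and IL-35, and Flt3l were the remaining members of the list that fell at levels above detection (-2.58 and -0.51).

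Some cytokines were at the edge of detection. Il2, the growth factor gene that CD28 is best known for, stood at 0.793 and 1.84 CPM in WT and 0.0883, 0 and 0.111 CPM in DKI (adjusted p 0.0013). Csf2, the gene of GM-CSF, stood at 1.69 and 1.29 CPM in WT and 0.0883, 0 and 0 CPM in DKI (adjusted p 0.0023), and Ccl1 at 2.05 and 4.24 CPM in WT and 0.265, 0.112 and 0.445 CPM in DKI (adjusted p 0.0026). The DKI values of Il2 and Csf2 rest on at most a single count per library, so no fold is given for them. NFAT, the factor freed by calcium signals of the T cell receptor, binds TGGAAAA, which was found on either strand in 5 of 20 windows of the list (25.0%), beside 5.1% of windows of genes tested and 6.7% of all windows. The share was 4.7% among windows of genes that fell and 4.5% among those of genes that rose. Il4, Il13 and Il21, which were not called, held the letters. The windows of Ifng, Ccl3, Lif, Lta, Xcl1, Tnf and Csf2, which fell, did not. The κB letters, searched on both strands as GGGA, any base and TTTCC, were found in 2 of 20 windows (10.0%), beside 0.4% of windows of genes tested. The share was 0.5% among windows of genes that fell and 0.3% among those that rose. The 150 bases before the start of 2 cytokine genes that fell, chosen for a match there, show the NFAT letters in capitals:
Il2 (chr3:37125955-37126104, minus strand): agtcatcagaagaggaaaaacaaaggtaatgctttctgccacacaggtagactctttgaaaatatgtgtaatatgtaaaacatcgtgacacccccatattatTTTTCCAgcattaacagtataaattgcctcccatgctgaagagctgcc
Ccl1 (chr11:82179813-82179962, minus strand): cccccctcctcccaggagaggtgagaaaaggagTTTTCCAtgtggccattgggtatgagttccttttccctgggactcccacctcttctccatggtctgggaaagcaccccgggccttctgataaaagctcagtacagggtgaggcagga
The match began at -48 in Il2 and at -117 in Ccl1.

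Transcription factors of activation were mixed. Of 38 tested, 13 fell and 5 rose (median -0.31), and 7 fell and 0 rose against number 4 alone. Tbx21, the gene of the Th1 and effector factor T-bet, stood at 87.9 and 88.3 CPM in WT and 14.0, 7.06 and 14.3 CPM in DKI (log2 fold change -2.89, SE 0.25, adjusted p 2.3e-07). Irf8 stood at 230 and 182 CPM in WT and 30.5, 21.2 and 36.4 CPM in DKI (log2 fold change -2.81, SE 0.27, adjusted p 2.3e-07), and Nr4a3, a receptor-induced orphan nuclear receptor, at 230 and 163 CPM in WT and 48.6, 53.1 and 54.9 CPM in DKI (log2 fold change -1.92, SE 0.27, adjusted p 1.4e-05). In these 3 genes both WT libraries lay far above DKI. Bhlhe40 (-1.68), Batf (-1.04) and Hif1a (-0.53) fell as well. In the other direction, the immediate early genes Egr1 (61.8 and 104 CPM in WT and 158, 161 and 167 CPM in DKI, log2 fold change 0.97) and Fos (5.12 and 9.12 CPM in WT and 16.3, 17.9 and 17.5 CPM in DKI, 1.32), Nfatc1 (0.40) and Rora (0.85) rose, though not against number 4 alone (adjusted p 0.2, 0.22, 0.16 and 0.25). Myc and Irf4, early targets of both signals, did not pass: Myc was at 273 and 241 CPM in WT and 166, 167 and 158 CPM in DKI (log2 fold change -0.65, adjusted p 0.057), and Irf4 at 724 and 931 CPM in WT and 537, 532 and 569 CPM in DKI (-0.60, 0.058).

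Receptors and surface proteins of activated cells were lower. 17 of 29 fell and 2 rose (median -0.82), with 7 falling against number 4 alone. Il2ra, the alpha chain of the IL-2 receptor, stood at 786 and 644 CPM in WT and 262, 254 and 271 CPM in DKI (log2 fold change -1.45, SE 0.23, adjusted p 6.8e-05), and Il2rb, the beta chain, at 467 and 384 CPM in WT and 207, 185 and 213 CPM in DKI (log2 fold change -1.08, SE 0.16, adjusted p 3.5e-05). Both chains passed with either WT library. Tnfrsf4, the costimulatory receptor OX40, stood at 42.9 and 55.9 CPM in WT and 13.5, 15.4 and 18.5 CPM in DKI (log2 fold change -1.65, SE 0.20, adjusted p 1.5e-06). Ly6a (-2.11), the ligand Tnfsf11 (-2.30), the survival gene Bcl2l1, which encodes Bcl-xL (-1.87), Cd44 (-1.10) and the transferrin receptor Tfrc (-1.76) fell by the log2 fold changes given. Cd5, which restrains receptor signals, rose (0.58). The receptor for IL-12 was lower in both chains, with Il12rb2 at 101 and 154 CPM in WT and 23.6, 13.5 and 23.2 CPM in DKI (log2 fold change -2.66, SE 0.28, adjusted p 2.7e-07) and Il12rb1 at 83.4 and 71.1 CPM in WT and 16.3, 12.4 and 18.1 CPM in DKI (log2 fold change -2.30, SE 0.27, adjusted p 7.9e-07). In the cytokine receptor list as a whole, 4 of 22 fell and 6 rose, the latter including Il7r, Il17ra and Il6st (1.18, 0.76 and 0.84), and against number 4 alone 0 rose and 3 fell.

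Among the CD28 family and inhibitory receptors, 5 of 19 fell and 2 rose, and against number 4 alone 0 rose and 1 fell, so that neither Ctla4 nor Vsir passed there (adjusted p 0.36 and 0.11). Cd200 stood at 43.0 and 51.2 CPM in WT and 15.4, 13.3 and 16.7 CPM in DKI (log2 fold change -1.63, SE 0.32, adjusted p 0.00071), the inducible costimulator Icos at 165 and 172 CPM in WT and 111, 118 and 115 CPM in DKI (-0.56), and Ctla4, the inhibitory relative of CD28, at 78.6 and 64.2 CPM in WT and 35.4, 33.7 and 33.5 CPM in DKI (-1.06, adjusted p 0.047). Vsir, the inhibitory receptor VISTA of resting T cells, rose (105 and 134 CPM in WT and 185, 195 and 184 CPM in DKI, 0.66). Of 19 cytotoxic genes, 3 fell, which were Gzmb and the serpins Serpinb6b and Serpinb9, inhibitors of granzymes (-1.61 and -1.22), and Gzmb alone passed against number 4 alone. Over all genes tested 15.8% fell, so the cytotoxic list was near that share. Prf1, the gene of perforin, stood at 10.6 and 17.1 CPM in WT and 10.1, 11.1 and 11.3 CPM in DKI and did not pass (adjusted p 0.71). Of regulatory T cell genes 6 of 15 fell, all 6 of which also belong to one of the activation or CD28 family lists, and 3 fell against number 4 alone.

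Genes induced by interferon were lower in part. 9 of 40 fell and 2 rose (median -0.26), and 7 fell against number 4 alone (median -0.39). The members that fell were led by guanylate-binding proteins and immunity-related GTPases, which interferon gamma induces. Gbp2 stood at 1072 and 1748 CPM in WT and 424, 275 and 561 CPM in DKI (log2 fold change -1.75, SE 0.21, adjusted p 1.7e-06), Gbp5 at 322 and 404 CPM in WT and 126, 91.1 and 157 CPM in DKI (log2 fold change -1.54, SE 0.18, adjusted p 8e-07), and Iigp1 at 272 and 444 CPM in WT and 127, 72.2 and 192 CPM in DKI (log2 fold change -1.46, SE 0.28, adjusted p 0.00048). Here WT number 4 was the higher WT library, and DKI number 2 was the lowest DKI library in all 3 genes. Igtp, Bst2, Ifi47 and Irgm1 had log2 fold changes of -0.64, -0.77, -0.49 and -0.63. The interferon-stimulated response element, searched on both strands as GAAA, any 2 bases and GAAA, was found in 20 of 36 windows of the list (55.6%), beside 3.2% of windows of genes tested and 3.4% of all windows. The share was 3.7% among windows of genes that fell and 2.9% among those of genes that rose. Members not called, such as Isg15 and Ifit1, held it too, and so did Ifi213 and Ddx58, which rose. The element thus marks the list and not the members that fell. The 150 bases before the start of 3 members that fell, chosen for a match there, are shown with the element in capitals:
Gbp2 (chr3:142620513-142620662, plus strand): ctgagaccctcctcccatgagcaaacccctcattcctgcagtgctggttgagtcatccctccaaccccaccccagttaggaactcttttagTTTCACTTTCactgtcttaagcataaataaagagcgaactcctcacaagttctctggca
Igtp (chr11:58199406-58199555, plus strand): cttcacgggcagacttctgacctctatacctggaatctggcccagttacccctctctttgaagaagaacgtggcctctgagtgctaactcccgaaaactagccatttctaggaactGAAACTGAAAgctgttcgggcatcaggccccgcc
Bst2 (chr8:71537473-71537622, minus strand): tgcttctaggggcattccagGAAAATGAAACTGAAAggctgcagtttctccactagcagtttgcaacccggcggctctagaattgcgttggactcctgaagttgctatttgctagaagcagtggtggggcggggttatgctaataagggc
The match began at -59 in Gbp2, at -34 in Igtp, and at -130 and -124, overlapping, in Bst2.

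Genes of naive and quiescent T cells were higher. 21 of 32 rose and none fell (median 0.62), and 27 had every DKI library above both WT libraries. Against WT number 4 alone the median was 0.60, and 2 members passed, Tob1 and Ramp1. S1pr1, the receptor that lets T cells leave lymph nodes, stood at 128 and 190 CPM in WT and 376, 401 and 389 CPM in DKI (log2 fold change 1.29, SE 0.30, adjusted p 0.0029). Klf2, the factor that drives S1pr1, stood at 104 and 173 CPM in WT and 294, 321 and 317 CPM in DKI (log2 fold change 1.17, SE 0.29, adjusted p 0.0046). Il7r, the receptor for the survival cytokine IL-7, stood at 199 and 257 CPM in WT and 492, 535 and 525 CPM in DKI (log2 fold change 1.18, SE 0.37, adjusted p 0.022). In each of these the 3 DKI libraries were tightly grouped above both WT libraries, with WT number 4 between DKI and number 1. Klf3 (1.13), Btg2 (1.11), Klf13 (0.56), Klf7 (0.68), Tcf7 (0.71) and Lef1 (0.65), factors of resting or naive cells, rose by smaller amounts.

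Homing genes moved both ways, with 7 of 28 rising and 9 falling, and against number 4 alone 1 rose and 3 fell. Ccr4, S1pr4 (1.08), Itga4 (1.12), Gpr183 (0.86) and Cxcr4 (1.41) rose. Ly6c1 (-2.10), Icam1 (-0.80), Itgb1 (-0.96) and the effector chemokine receptor Cxcr3 (-1.06) fell. The T cell receptor complex and its signalling genes were slightly higher: 13 of 35 rose and 3 fell (median 0.26), and against number 4 alone 3 rose and 0 fell (median 0.19). Cd3g stood at 134 and 142 CPM in WT and 177, 197 and 173 CPM in DKI (log2 fold change 0.41, SE 0.07, adjusted p 0.00032) and passed against number 4 alone, and Prkcq, the kinase that carries CD28 signals to NF-κB, stood at 240 and 328 CPM in WT and 437, 444 and 416 CPM in DKI (log2 fold change 0.61, SE 0.13, adjusted p 0.0016). The diacylglycerol kinases Dgka (0.73) and Dgkz (0.39), which damp receptor signals, rose too. Among brakes on PI3K and mTOR, 5 of 21 rose, among them Pik3ip1 (49.9 and 66.4 CPM in WT and 137, 143 and 137 CPM in DKI, 1.26), Sesn1 (0.97) and Ddit4 (0.94), and 2 fell (Phlpp2 and Fnip2, -0.75 and -1.67). Against number 4 alone 0 rose and 1 fell.

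Genes of metabolism were lower by modest amounts, and few of these calls held against WT number 4 alone. In glycolysis and lactate export 11 of 26 fell and none rose (median -0.62), and against WT number 4 alone 0 passed (median -0.44). Pkm (chr9:59656368-59679375) stood at 887 and 643 CPM in WT and 348, 370 and 376 CPM in DKI (log2 fold change -1.07, SE 0.29, adjusted p 0.0079; -0.77 with adjusted p 0.23 against number 4 alone). Gene-level counts do not separate the Pkm1 and Pkm2 isoforms. Hk2, the inducible hexokinase, stood at 94.5 and 59.5 CPM in WT and 16.7, 16.4 and 20.3 CPM in DKI (log2 fold change -2.12, SE 0.54, adjusted p 0.006), and the lactate exporter Slc16a1 at 173 and 116 CPM in WT and 60.5, 56.2 and 60.5 CPM in DKI (log2 fold change -1.29, SE 0.27, adjusted p 0.0011). In all 3 genes the DKI libraries lay below both WT libraries. Gapdh (-0.99), Pgam1 (-1.37), Tpi1 (-1.46), Ldha (-0.94) and Pgk1 (-0.92) fell as well.

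The mitochondrial and one-carbon lists were broader. 22 of 28 genes of the TCA cycle and one-carbon metabolism fell (median -0.76), 4 of them against number 4 alone, among them Tyms, Paics and Mthfd2. Mthfd2, the mitochondrial folate enzyme of activated cells, stood at 108 and 75.7 CPM in WT and 38.2, 35.0 and 39.4 CPM in DKI (log2 fold change -1.30, SE 0.22, adjusted p 0.00013). Of nuclear-encoded respiratory chain subunits 29 of 32 fell (median -0.56), 2 against number 4 alone, Atp5c1 and Uqcrfs1. Of transcripts encoded in the mitochondrial genome, 1 of 15 fell and none rose (median -0.09). In the pentose phosphate, glutamine and polyamine list 9 of 18 fell, and Odc1, the first enzyme of polyamine synthesis, stood at 304 and 214 CPM in WT and 89.0, 85.1 and 89.6 CPM in DKI (log2 fold change -1.56, SE 0.25, adjusted p 8.7e-05). 14 of 29 genes of the ATF4 response, amino acid transport and tRNA charging fell, Asns with the largest fold among those that passed, at 11.4 and 8.76 CPM in WT and 1.59, 0.785 and 1.45 CPM in DKI (log2 fold change -2.97, SE 0.68, adjusted p 0.0026). 12 of 33 genes of cholesterol and fatty acid synthesis fell, among them Scd2 and Idi1 (-1.98 and -1.02). Against number 4 alone 3, 0 and 1 members of these last 3 lists fell.

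The machinery that makes and turns over protein was lower together. 27 of 35 ribosome biogenesis genes fell (median -0.74), 22 of 30 translation factors (-0.63), 31 of 32 proteasome subunits (-0.65) and 20 of 27 chaperones (-0.73). None of these 4 lists had a member that rose. Against number 4 alone the medians were -0.56, -0.44, -0.50 and -0.58, and 0, 1, 3 and 2 members fell. Ncl, nucleolin, stood at 2452 and 1746 CPM in WT and 982, 964 and 987 CPM in DKI (log2 fold change -1.10, SE 0.20, adjusted p 0.00027). Eif4a1, a helicase of cap-dependent initiation, stood at 1005 and 808 CPM in WT and 498, 493 and 499 CPM in DKI (log2 fold change -0.87, SE 0.20, adjusted p 0.0033). Psmb8, a subunit of the immunoproteasome, stood at 265 and 269 CPM in WT and 170, 160 and 175 CPM in DKI (log2 fold change -0.66, SE 0.10, adjusted p 6.3e-05) and passed against number 4 alone. In all 3 the DKI libraries were within a narrow band below both WT libraries.

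Of known or proposed regulators of Pkm splicing, 8 of 18 fell and 1 rose (median -0.37). Ptbp1, a repressor of the exon of the Pkm1 isoform, stood at 477 and 416 CPM in WT and 287, 303 and 303 CPM in DKI (log2 fold change -0.59, SE 0.14, adjusted p 0.0046), and its partner Hnrnpa1 at 838 and 691 CPM in WT and 478, 475 and 469 CPM in DKI (log2 fold change -0.69, SE 0.13, adjusted p 0.00053). Ptbp2, the paralog best known from neurons, was the member that rose (40.9 and 49.3 CPM in WT and 71.1, 60.3 and 67.9 CPM in DKI, 0.56). Against number 4 alone 1 member passed, Nek2, a kinase that is also a mitotic gene. Srrt, which encodes ARS2, a partner of the nuclear cap-binding complex, stood at 244 and 131 CPM in WT and 158, 154 and 162 CPM in DKI (log2 fold change -0.25, SE 0.23, adjusted p 0.46). The DKI libraries lay between the WT libraries, above number 4 and below number 1, so the direction depended on the WT library (0.32 against number 4 alone). Among the partners of ARS2, 12 of 19 fell, including the cap-binding subunits Ncbp1 (-0.52) and Ncbp2 (-0.44) and the histone mRNA factor Slbp (-0.96), and none passed against number 4 alone.

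The remaining lists had members moving both ways, and most of these calls were lost against number 4 alone. Over all genes tested 10.3% rose and 15.8% fell, and the fatty acid oxidation counts were near these shares. In the MYC network 4 of 13 rose and 2 fell, the former including the MYC antagonists Mnt, Mxi1 and Mxd4 (0.45, 0.82 and 1.07), and against number 4 alone 0 rose and 0 fell. In fatty acid oxidation 3 of 20 rose and 2 fell, and among autophagy and lysosome genes 5 of 24 rose and 2 fell; against number 4 alone no member of either list passed. For p53 targets and apoptosis 4 of 25 rose, among them Bbc3, Bmf and Bcl2l11, genes of proteins that promote cell death (1.52, 1.41 and 0.62), and 8 fell, among them Cdkn1a (-1.31), and against number 4 alone 0 rose and 0 fell. Of NF-κB feedback genes and targets 8 of 22 fell, led by Icam1, Nfkbid and Bcl2a1b, and 1 rose, the caspase inhibitor Cflar (0.49), and against number 4 alone 0 rose and 2 fell, which were Icam1 and Bcl3.

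**Figure D2:**
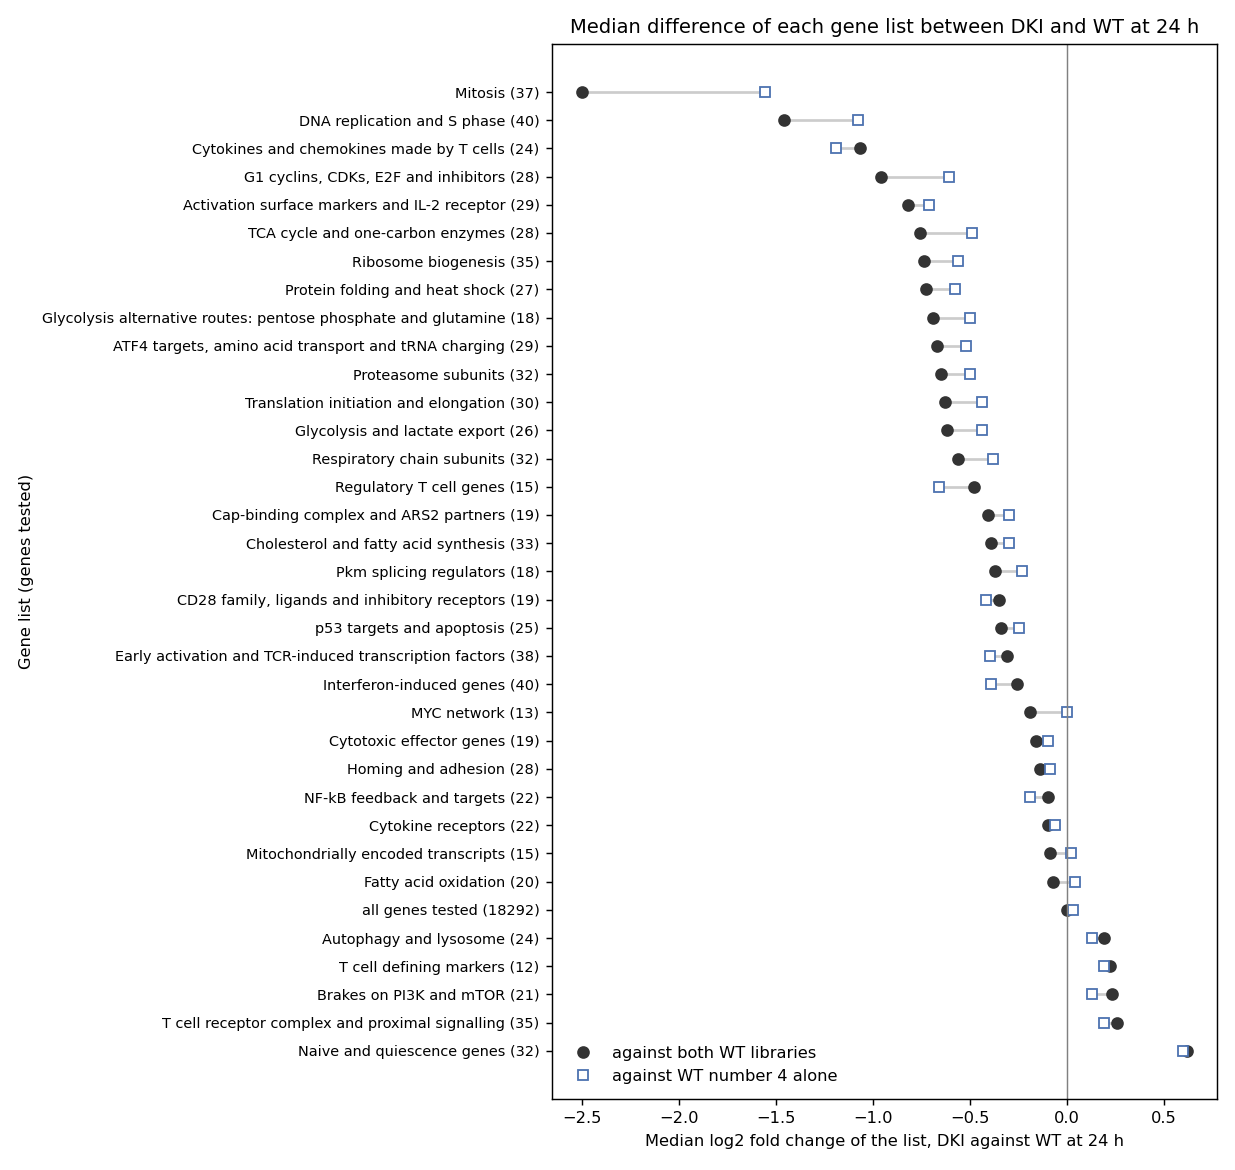
Median log2 fold change of each gene list in DKI against WT at 24 h (x axis), with the number of genes tested in brackets on the y axis. Filled circles use both WT libraries and open squares WT number 4 alone, with a line joining the values of a list. Mitosis has the lowest median with both, -2.50 and -1.56, while the naive list is at 0.62 and 0.60.

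Other CD28 genotypes at 24 h showed where DKI stood. The 3 CD28 Y170F libraries, in which 10 genes (0.0547%) were called against WT, gave another group to set DKI against that contains no WT library. So few calls against 2 unlike WT libraries do not show that CD28 Y170F equals WT. Mean Ifng was 18.2 CPM in CD28 Y170F and 52.7 CPM in WT, and mean Ccl3 11.9 and 32.8 CPM. The contrast of DKI with CD28 Y170F was added after the data were seen. The mitosis and S phase medians of CD28 Y170F against WT were -0.09 and -0.04, so list counts like those against WT were likely from the outset. One CD28 Y170F library came from a mouse of the other sex than the DKI and WT libraries by its Xist and Y-linked transcripts, and without it 4148 genes were called against DKI. DKI differed from CD28 Y170F in 5589 genes (30.6%), 3145 lower (17.2%) and 2444 higher (13.4%). In that contrast 34 of 37 mitosis genes (median -2.42), 39 of 40 S phase genes (-1.41), 10 of 24 cytokine genes (-1.16) and 28 of 35 ribosome biogenesis genes (-0.69) were lower in DKI, and 21 of 32 naive genes were higher (0.58). Ifng stood at 18.0, 13.6 and 23.1 CPM, Ccnb1 at 32.0, 22.1 and 44.1 CPM and S1pr1 at 200, 195 and 177 CPM in the CD28 Y170F libraries. The DKI libraries lay outside the Y170F range in all 3 genes. These libraries were all deeper than 12 M counts, and with the depth term 342 genes were called. The comparisons with WT and with CD28 Y170F share the DKI libraries, so they are not independent. B cell markers summed to 306, 109 and 38.6 CPM in the CD28 Y170F libraries and 31.5 to 33.9 CPM in DKI, and 6 of 17 were lower in DKI. The part of these cells in the result was not tested.

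Against CD28 AYAA, 460 genes were called (2.51%), 429 lower in DKI (2.35%) and 31 higher (0.169%). The lists with the most calls were those of the cell cycle. 33 of 37 mitosis genes (median -1.62), 25 of 40 S phase genes (-0.82) and 9 of 28 G1 genes were lower in DKI, while 0 of 24 cytokine genes, 0 of 29 activation surface genes and 0 of 32 naive genes passed in either direction. Ccnb1 stood at 12.0, 11.9 and 19.0 CPM in CD28 AYAA and 4.24, 4.48 and 4.78 CPM in DKI (log2 fold change -1.67, SE 0.33, adjusted p 0.003). Ifng stood at 2.66, 2.79 and 5.63 CPM in CD28 AYAA and 2.03, 1.01 and 2.78 CPM in DKI (log2 fold change -0.93, SE 0.76, adjusted p 0.58). The groups were apart in Ccnb1 and overlapped in Ifng. The genes with the largest folds among those called were Hist1h2ah, Iqgap3, Hist2h3c2, Cdc25c and Ckap2l, lower in DKI with log2 fold changes of -2.53 to -2.17, and Acadl, an enzyme of fatty acid oxidation, higher in DKI (36.9, 33.4 and 31.9 against 11.3, 14.2 and 14.7 CPM, log2 fold change 1.35), followed by Cxcr4, Heatr5a, Myo9a and Zfp58 (1.25, 0.55, 0.54 and 0.50). Mean Acadl was 44.7 CPM in WT and 34.1 CPM in DKI, so DKI did not stand above WT in this gene. It was 16.6 CPM in CD28 Y170F and 6.54 CPM in the libraries labelled CD28 KO. With low depth as a term 10 genes were called, among the genes named Acadl alone. The difference from CD28 AYAA and the depth of the libraries cannot be told apart. One CD28 AYAA library came from a mouse of the other sex by its Xist and Y-linked transcripts, and without it 262 genes were called. Leaving out any one of the 6 libraries gave 262 to 428 calls.

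Against the libraries labelled CD28 KO, 1657 genes were called (9.06%), 1153 higher in DKI (6.3%) and 504 lower (2.76%). Those libraries held Cd28 at 482 and 476 CPM, so the gene count does not show the deletion. DKI stood above them in 24 of 40 S phase genes (median 0.87), 13 of 29 activation surface genes, 13 of 40 interferon-induced genes and 17 of 32 respiratory chain genes. No mitosis gene was higher and 3 were lower (median 0.26). Mcm6 stood at 220, 208 and 211 CPM in DKI and 57.2 and 71.5 CPM in the libraries labelled CD28 KO (log2 fold change 1.73, SE 0.24, adjusted p 5.6e-05), and Ccnb1 at 4.24, 4.48 and 4.78 CPM in DKI and 3.57 and 4.55 CPM in those libraries (log2 fold change 0.14, SE 0.40, adjusted p 0.88). The genes higher by most were Lag3, an inhibitory receptor (3.57), Irf4 at 537, 532 and 569 against 64.7 and 48.4 CPM (log2 fold change 3.27, SE 0.27, adjusted p 2.3e-08), the sulfotransferase gene Chst2 (2.64), Lif (2.93) and Il12rb2 (2.40). The genes lower by most were Cd22, Siglecg and Jchain, known from B lineage cells, with Scd1 and Ctse (-5.18, -4.98, -4.95, -5.10 and -4.90). Several of these calls were lost in other settings: without CD28 KO number 1 the adjusted p was 0.085 for Cd22, 0.17 for Siglecg, 0.4 for Jchain, 0.22 for Scd1 and 0.28 for Lif, and Scd1 was lost without any one library. Ctse, Lag3, Irf4, Chst2 and Il12rb2 kept their call in every setting run. Beside this, the summed B cell markers were 290 and 214 CPM in those libraries and 31.5 to 33.9 CPM in DKI, with 10 of 17 markers lower in DKI, and the part of these cells in the result was not tested. The count was 207 without the library labelled CD28 KO number 1 and 740 without number 2, which also differs in sex, and between 917 and 1043 without any one DKI library. With the replicate number as a block it was 827, though the numbers do not pair these samples.

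**Figure D3:**
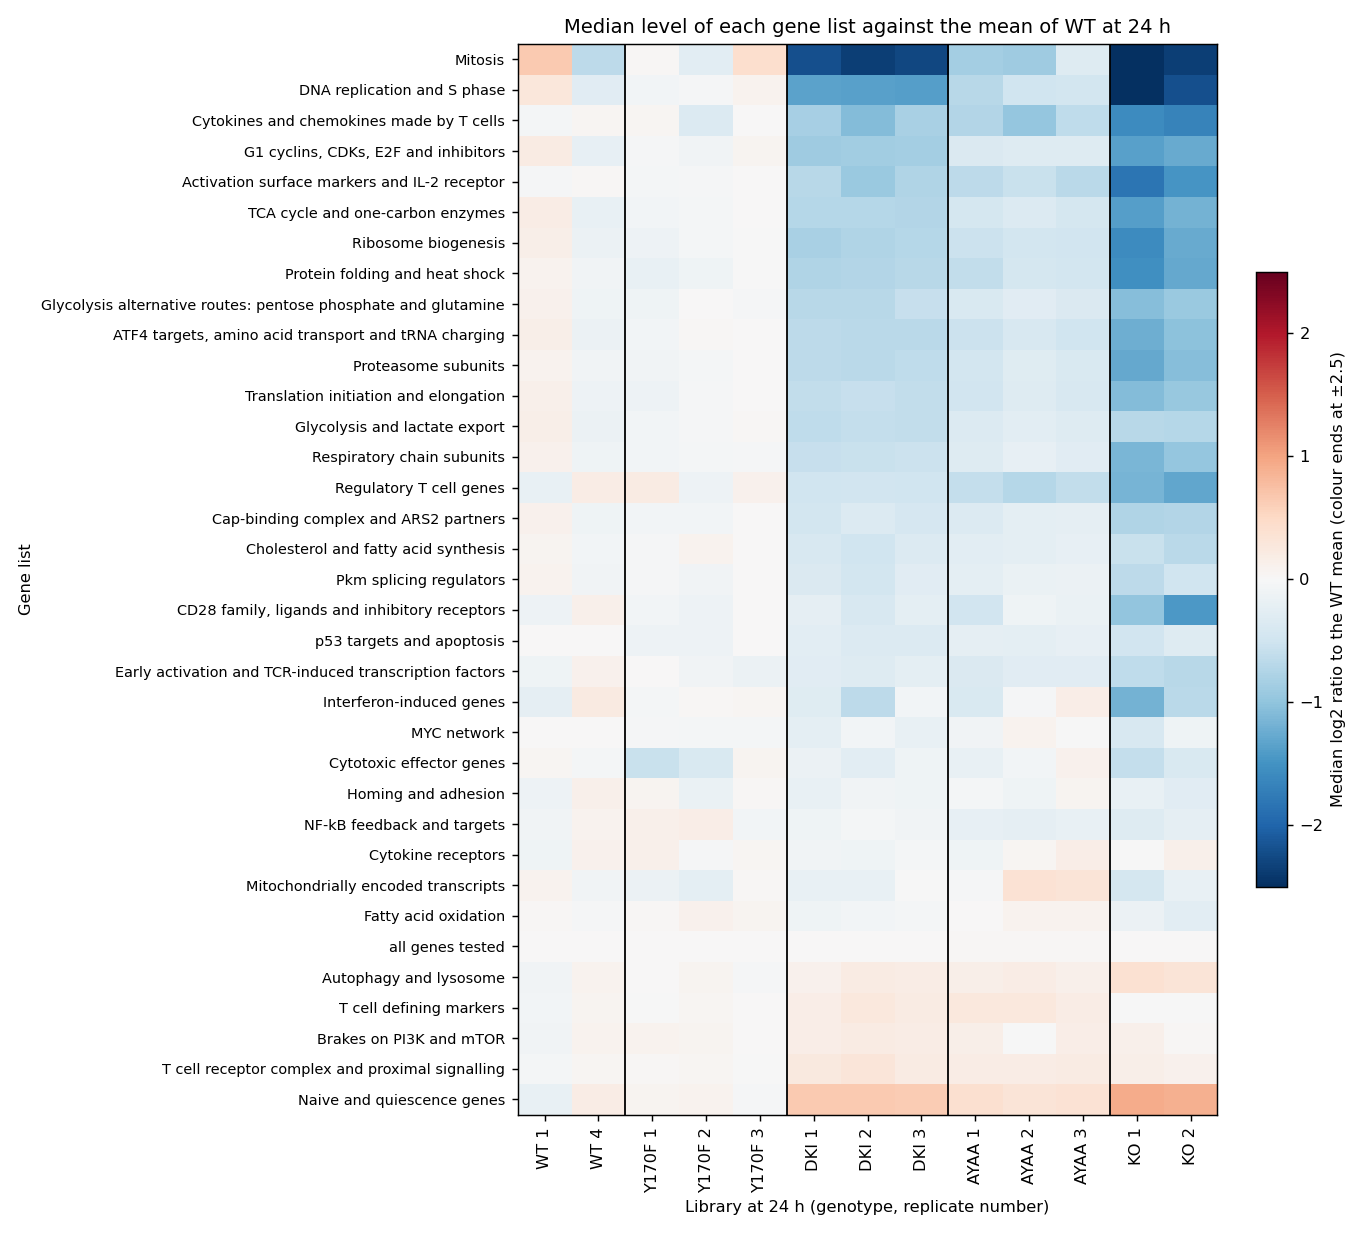
Median level of each gene list (rows) in each library at 24 h (columns, grouped by genotype and named by replicate number), as the log2 ratio to the mean of the 2 WT libraries; blue is lower, red is higher and the colour ends at 2.5 log2 units either way. In the mitosis row the CD28 Y170F columns are pale (0.02, -0.27 and 0.42) and the columns of DKI (-2.20, -2.35 and -2.28) are darker than those of CD28 AYAA (-0.85, -0.88 and -0.32).

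At 72 h the difference from WT took another form, and WT number 4 and the DKI libraries again had the low depth. At 72 h, 4279 genes were called (23.4%), 1877 higher (10.3%) and 2402 lower (13.1%). The test of the change between the times called 5938 genes (32.5%), 3241 with a higher DKI effect at 72 h (17.7%) and 2697 with a lower one (14.7%). Without WT number 1 at 24 h that count was 3766. Of the 2881 genes lower in DKI at 24 h, 2084 had a higher effect at 72 h by that test, 638 were called higher in DKI at 72 h and 256 lower. Of the 1884 genes higher at 24 h, 1339 had a lower effect at 72 h, 623 were called lower there and 70 higher. These counts use the 24 h values on both sides, so a value that was extreme at 24 h by chance enters both.

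By group, the change between times was upward in 33 of 37 mitosis genes, 38 of 40 S phase genes, 33 of 35 ribosome biogenesis genes and 14 of 24 cytokine genes, and downward in 28 of 32 naive genes. The cell cycle lists ended near WT: at 72 h 0 of 40 S phase genes and 5 of 37 mitosis genes were lower and none higher. Cytokines, ribosome biogenesis and naive genes stood on the other side of WT, with 11 of 24 and 31 of 35 higher and 22 of 32 lower in DKI. Ifng at 72 h stood at 1.33 and 3.23 CPM in WT and 13.9, 13.9 and 16.2 CPM in DKI, and the change between times was 7.59 log2 units (SE 1.09, adjusted p 1.8e-05). Lta stood at 12.6 and 4.38 CPM in WT and 81.7, 80.8 and 90.4 CPM in DKI, and Rrm2 at 330 and 290 CPM in WT and 343, 330 and 346 CPM in DKI. At 24 h DKI was the lower group in all 3 genes, and at 72 h it was the higher one in Ifng and Lta. Beside this, NK cell markers summed to 162 and 109 CPM in WT and 347, 320 and 357 CPM in DKI at 72 h, with 3 of 9 higher in DKI and none lower, and their part in the result was not tested.

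**Figure D4:**
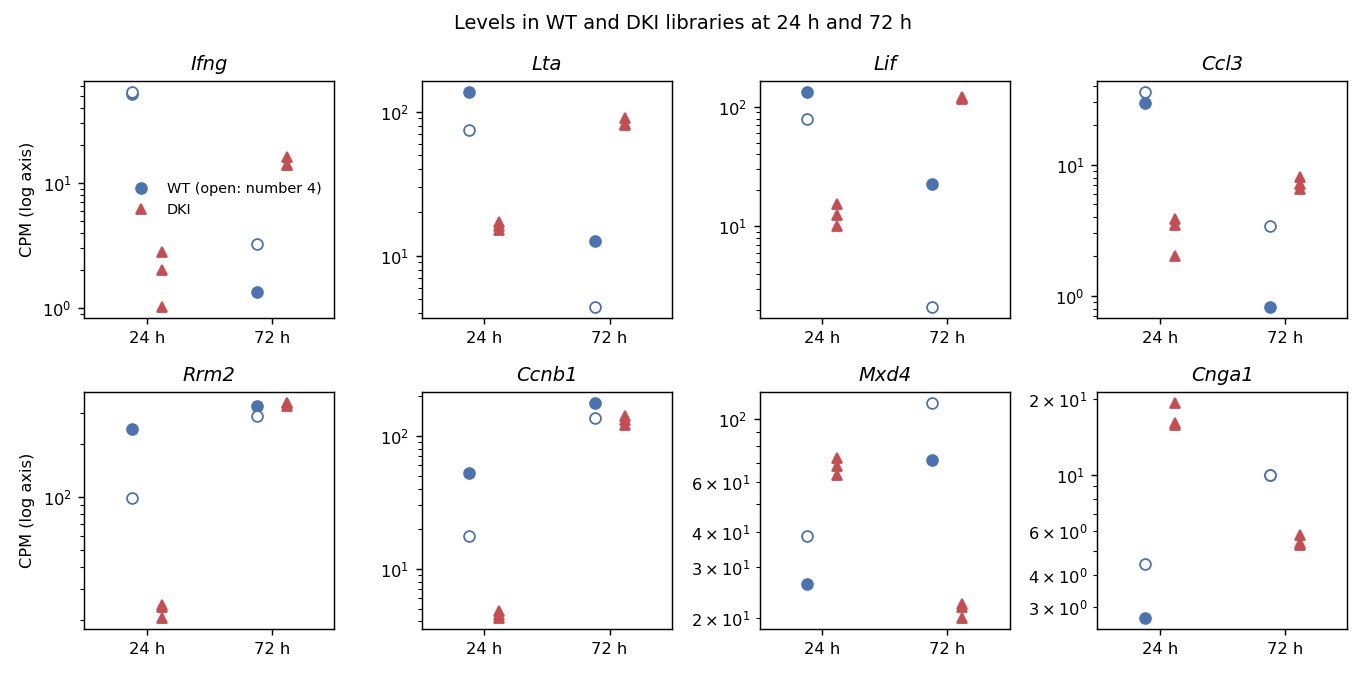
Levels of 8 genes in counts per 1000000 (CPM, log axis) at 24 h and 72 h, 1 marker per library: circles for WT, open for number 4, and triangles for DKI. Ifng, Lta, Lif and Ccl3 are lower in DKI at 24 h and higher at 72 h, Rrm2 and Ccnb1 are lower at 24 h and near WT at 72 h, and Mxd4 and Cnga1 are higher at 24 h and lower at 72 h.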

How the data were processed

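RNA was sequenced in 34 libraries. The authors deposited 1 table of estimated counts (expected counts) for 48526 genes, of the kind RSEM gives, not normalised. The submitters' processing notes name bcl2fastq 2.20, FastQC, STAR, RSEM and limma and the builds mm10 and GRCm38, without their settings. The annotation release, filters and strand setting are not given in the sources used here. Between 83.7% and 90.8% of values were whole, and all were rounded before the test. Estimated counts can share reads between similar genes, so counts of near-identical copies are uncertain.

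Genes were tested with edgeR 4.0.16 in R 4.3.3 over all 34 libraries, with 1 mean per group, TMM scaling (0.83 to 1.11), the default expression filter by group (18292 genes left) and the quasi-likelihood test, and p-values were adjusted by the Benjamini-Hochberg method with a threshold of 0.05. The standard error was taken from the fold change and the F statistic. CPM values use TMM-scaled library totals. All groups share the estimate of spread, since WT has 2 libraries. Alternatives were DESeq2 1.42.0, limma-voom (limma 3.58.1), RLE factors, no filter, only the groups compared, low depth (under 12 M counts) as a term, the replicate number as a block, each library left out, and protein-coding genes alone. The last, and the contrast with CD28 Y170F, were added after the data were seen. Replicate numbers shared by DKI and the other CD28 genotypes did not pair the samples (correlations of deviations between -0.025 and 0.035). No libraries held identical values. On simulated data for DKI against WT at 24 h, run on 17442 genes, the test called 18 of 50 genes changed 1.5-fold, 40 of 50 changed 2-fold and all 50 at 4-fold and at 8-fold, with 3 false calls. Apart from the changed genes, every simulated library had the same mean and spread per gene, and genes of low level were not changed. The simulation therefore lacks the difference between WT numbers 1 and 4. Its false calls do not measure the error from that difference.

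Cd28, Pkm and Srrt were named in any case. Others were named as the 12 largest log2 fold changes in each direction among genes called with both WT libraries and with number 4 alone, with mean expression (log2 CPM) no lower than 3 and groups that did not overlap, leaving out predicted, mitochondrial, ribosomal protein, antigen receptor, Xist and Y-linked genes. Up to 5 in each direction were named likewise in the other contrasts, and from each list up to 8 by p-value, together with members named for their role. The members and the gene lists were chosen with earlier results of these data known. Gene coordinates are from GENCODE release M21, matched by ID for 99.0% of genes, and promoter windows are from RefSeq on GRCm38.p6, matched by symbol.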

Additional observations from a re-analysis of the deposited data

Results flagged for a closer look

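The difference between DKI and WT changed from 24 h to 72 h in 5938 genes by the test of that change in edgeR's quasi-likelihood fit, and 10 named genes are given here with the change as the 72 h minus the 24 h log2 difference. It was upward in Ifng (7.59), Tgm2 (7.06), Lif (6.24), Lta (5.95) and Ccl3 (5.35). Tgm2, which encodes a transglutaminase, stood at 3.64 and 1.75 CPM in WT and 0, 0.224 and 0.445 CPM in DKI at 24 h, and at 15.2 and 0.939 CPM in WT and 88.3, 72.9 and 99.0 CPM in DKI at 72 h. Lif stood at 134 and 79.1 CPM in WT and 12.4, 10.1 and 15.5 CPM in DKI at 24 h, and at 22.6 and 2.09 CPM in WT and 118, 122 and 117 CPM in DKI at 72 h. In both genes DKI was the lower group at 24 h and the higher group at 72 h, without overlap.

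The change was downward in Mxd4 (-3.19), Cnga1 (-3.17), Ccng2 (-3.04), Abca1 (-2.99) and Klrd1 (-2.92). Mxd4, a MYC antagonist, stood at 26.3 and 38.8 CPM in WT and 68.0, 72.5 and 63.3 CPM in DKI at 24 h, and at 71.5 and 114 CPM in WT and 21.7, 22.4 and 19.9 CPM in DKI at 72 h. Ccng2, a cyclin of resting cells, stood at 24.6 and 39.4 CPM in WT and 66.5, 64.2 and 68.4 CPM in DKI at 24 h, and at 141 and 151 CPM in WT and 37.1, 36.0 and 38.3 CPM in DKI at 72 h. The cholesterol exporter gene Abca1 stood at 8.54 and 6.18 CPM in WT and 15.1, 15.7 and 14.1 CPM in DKI at 24 h, and at 21.7 and 24.5 CPM in WT and 4.97, 5.93 and 6.48 CPM in DKI at 72 h. Klrd1, a lectin-like receptor gene of NK and T cells, stood at 17.1 and 12.7 CPM in WT and 26.1, 30.9 and 29.6 CPM in DKI at 24 h, and at 58.6 and 91.7 CPM in WT and 20.4, 14.9 and 21.6 CPM in DKI at 72 h.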

How the results depend on the processing

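WT has 2 libraries at 24 h, of which 1 has the depth of DKI. The 4765 genes called in DKI against WT were 1522 with low depth as a term, and between 671 (without WT number 1) and 4908 when a library was left out. DESeq2, limma-voom, RLE factors, no filter, only the groups compared and protein-coding genes alone gave 5131, 4412, 4796, 4221, 5072 and 4706. Srrt, not called, changed sign with the depth term (0.24) and without WT number 1 (0.32), with a range of -0.64 to 0.32 when a library was left out. Of 324 values of named genes in DKI against WT, 316 kept their direction and their side of the threshold, but most of these genes were chosen for passing with both WT libraries and with number 4 alone. Of 440 values of genes named in the other contrasts 46 lost their call, and of 912 list counts 161 moved by over 1.5 times. The count for the change between times was 3766 (without WT number 1 at 24 h) to 6014 with a library left out. The count against the libraries labelled CD28 KO was 1012 with limma-voom, 4381 with only the groups compared and 207 to 1043 with a library left out. Against CD28 AYAA it was 240 with limma-voom, 10 with the depth term, 2371 with only the groups compared and 262 to 428 with a library left out. Against CD28 Y170F it was 342 with the depth term and 4050 to 4737 with a library left out. With the replicate number as a block the counts were 827 (CD28 KO), 421 (CD28 AYAA) and 5299 (CD28 Y170F). No paired analysis was possible because DKI and WT share only 1 replicate number at each time. The cause of these shifts was not tested.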
